A study of Mus musculus with 2 samples.

Results

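Lipoprotein lipase (Lpl), phospholipid transfer protein (Pltp) and 4 genes that work beside them, Lipa, Angptl4, Lmf1 and Gpihbp1, were followed in mouse macrophage-like cells with and without activation of the liver X receptor. The genes were chosen by name, and every probe set annotated to only 1 of them was taken, which gave 12 of the 45101 probe sets on the array and 6 of 18193 genes. The cells were RAW264.7, a mouse macrophage-like line, stably expressing murine LXRα after chemical transfection, so both groups carried the introduced receptor. 1 array was hybridised with RNA from cells given GW3965, a synthetic LXR agonist, at 1 µM together with LG268, an agonist of the retinoid X receptors, at 100 nM for 24 h, and 1 array with RNA from cells given the solvent DMSO for 24 h. The labels do not say whether the line was a single clone, no untransfected cells were analysed here, and neither ligand was given alone.

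Lipoprotein lipase hydrolyses the triglycerides of lipoprotein particles, and macrophages make and secrete it. Its maturation in the endoplasmic reticulum needs Lmf1, Gpihbp1 binds it on the capillary endothelium, apolipoprotein C-II activates it, and Angptl4 inactivates it. Pltp moves phospholipids between lipoprotein particles and remodels high-density lipoprotein, while Lipa, lysosomal acid lipase, frees cholesterol and fatty acids from lipids taken up by the cell. Lpl and Pltp are known LXR target genes in macrophages, and Angptl4 is best known as a target of the PPAR receptors.

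The values are MAS5 signals, linear intensities in arbitrary units scaled to a common trimmed mean. A floor of 276.4, the median of all probe sets other than controls over both arrays, marked signals too weak for a ratio. A gene was called measured if its representing probe set, the one with the highest mean log2 signal, exceeded the floor on at least 1 array. With 1 array per condition there is no replicate check and no test, so every difference below describes these 2 arrays, and the number of arrays limits the precision. Error could be estimated only between probe sets of the same gene. The SD was 0.28 for the log2 ratio of 1 probe set, over 4866 genes, and it does not include variation between cultures. The introduced receptor, Nr1h3, had 5577 with the ligands and 3150 with DMSO at its single probe set, and whether the introduced mRNA is seen by it is not stated in the labels. Of 10 macrophage markers, all measured, 6 had positive and 4 negative ratios, and log2 ratios ran from -0.21 to 3.07. Csf1r, Cd14 and Lyz2, which mark the lineage, had signals of 132072, 93364 and 164189 with the ligands and of 127050, 94034 and 150697 with DMSO.

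Pltp had the largest difference of the 6 genes. Its brighter probe set, 1417963_at, had a signal of 38781 with the ligands and 9213 with DMSO, a 4.21-fold higher value (log2 ratio 2.07). Its other probe set, 1456424_s_at, had 36024 with the ligands and 7280 with DMSO, which is 4.95-fold higher (log2 ratio 2.31). The probe sets differed from each other by 0.23 on the log2 scale, a disagreement reached or exceeded by 49.1% of genes with a pair of probe sets. Both Pltp ratios were more than 7 times the probe set SD, which does not include variation between cultures. Of 11077 measured genes, 27 had a higher ratio than Pltp, which ranked 28 from the top.

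The promoter window of Pltp is shown because it is the member with the largest ratio and a RefSeq window was given for it. The window lies at chr2:164857659-164857958 in GRCm38.p6, on the minus strand, and runs from 250 bases before to 50 after the annotated start. Capitals mark an inverted CCAAT box that begins 182 bases before the start and a TATAAA that begins 36 bases after it.
Pltp promoter: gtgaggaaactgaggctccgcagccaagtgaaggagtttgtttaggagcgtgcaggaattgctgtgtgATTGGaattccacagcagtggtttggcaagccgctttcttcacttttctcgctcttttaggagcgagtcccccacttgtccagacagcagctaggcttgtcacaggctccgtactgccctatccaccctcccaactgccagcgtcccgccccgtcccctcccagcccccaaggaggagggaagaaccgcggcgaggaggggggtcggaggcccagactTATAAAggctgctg
LXR and its RXR partner bind paired copies of the half-site AGGTCA spaced by 4 bases, the DR4 element. No DR4 with at most 2 mismatches was found on either strand of this window, nor in those of Lipa and Lmf1, against 3.03% of all 32544 promoter windows of the same length. The same pair spaced by 1 base, the DR1 element of PPAR and RXR, was likewise not found in the 3 windows and occurs in 3.87% of all windows. The single half-site AGGTCA, which either pair can contain, and the E-box CACGTG were also not among the letters of the 3 windows. They occur in 16.2% and 7.17% of all windows. CCAAT on either strand occurs in 37.4% of all windows and TATAAA on either strand in 13.6%, and the Lipa window holds both as well. The search covers these letters in 300 bases only.

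**Figure D1:**
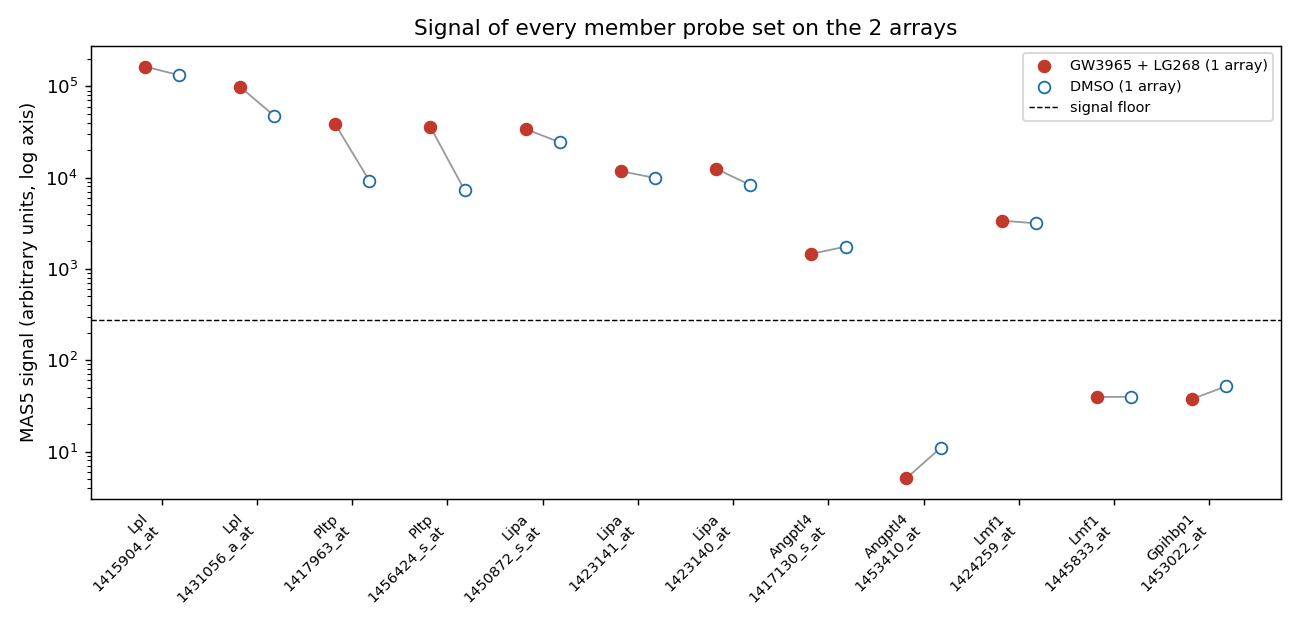
Signal of each member probe set (log axis, arbitrary units) on the ligand array (filled, left) and the DMSO array (open, right), 1 array each, with the floor of 276.4 as a dashed line. Both Pltp probe sets lie well apart between the arrays, 3 probe sets lie below the floor on both, and the Angptl4 probe set above the floor is lower with the ligands.

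Lpl was bright on both arrays, and its probe sets disagreed about the size of the difference. The brighter one, 1415904_at, had 164897 with the ligands and 132942 with DMSO, a 1.24-fold higher value (log2 ratio 0.31). The other, 1431056_a_at, had 99271 with the ligands and 47622 with DMSO, which is 2.08-fold higher (log2 ratio 1.06). Both were higher on the ligand array. They differed by 0.75 on the log2 scale, and 7.17% of genes with a pair of probe sets disagreed at least as much. Affymetrix names ending in _a_at mark probe sets that match several transcripts of 1 gene. A ratio between 0.31 and 1.06 is what these arrays give for Lpl, and the mean of its probe sets was 0.69. Why the probe sets differ was not tested.

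Lipa was slightly higher by all 3 of its probe sets. Its brightest, 1450872_s_at, had 34110 with the ligands and 24366 with DMSO, 1.40-fold higher (log2 ratio 0.49). The next, 1423141_at, had 11766 with the ligands and 9921 with DMSO (log2 ratio 0.25). The third, 1423140_at, had 12532 with the ligands and 8293 with DMSO (log2 ratio 0.60). The lowest of these ratios was within 1 probe set SD of 0 and the other two were not, and 8.84% of measured genes had a higher ratio than the brightest. No probe set other than 1423140_at, at 1.51-fold, reached 1.5-fold.

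Lmf1, the endoplasmic reticulum protein that lets lipases fold and dimerise, had 3380 with the ligands and 3159 with DMSO at 1424259_at (log2 ratio 0.10). Its other probe set, 1445833_at, was below the floor on both arrays, at 39.6 with the ligands and 39.7 with DMSO. Angptl4, the secreted inhibitor, was the only measured member with a lower signal on the ligand array.

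The Angptl4 probe set 1417130_s_at had 1461 with the ligands and 1754 with DMSO, 1.20-fold lower (log2 ratio -0.26), which is within 1 probe set SD of 0. Its other probe set, 1453410_at, had 5.1 with the ligands and 11.0 with DMSO, so no fold is given. Gpihbp1, the endothelial anchor of the lipase, was below the floor on both arrays, at 37.6 with the ligands and 52.0 with DMSO. Endothelial markers were mostly below the floor too. Of 8 with a probe set, 2 were measured. Egfl7 had 1081 with the ligands and 1083 with DMSO, and Kdr had 39.0 with the ligands and 300.0 with DMSO. Pecam1, Cdh5 and Tek had at most 105.9 with the ligands and 36.5 with DMSO. Of 4 adipocyte markers none was measured, and of 5 hepatocyte markers 1 was, Apoa1, at 380.1 with the ligands and 25.9 with DMSO. Of the 10 macrophage markers, 2 passed 2-fold, both higher with the ligands, against 1.67% of all measured genes. The median log2 ratio of the 10 was 0.09. Mertk, a receptor for apoptotic cells, was at least 8.37-fold higher, with 2313 on the ligand array and, below the floor, 273.3 on the DMSO array. The pore-forming protein Mpeg1 was 2.03-fold higher and the Fc receptor Fcgr1 1.53-fold higher.

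Of the 6 genes, 5 were measured, 4 of them with a positive and 1 with a negative ratio, and 46.2% of all measured genes had a positive one. By the probe set that represents each gene, 1 of the 5, Pltp, was at least 2-fold higher, with 0 past 2-fold in the lower direction. For the 11077 measured genes as a whole, 1.67% reached 2-fold in the higher direction and 0.776% in the lower. Counted by probe set, 9 of 12 were measured and 3 of these, 2 for Pltp and 1 for Lpl, reached 2-fold higher, against 1.80% of 20731 measured probe sets, with 1.07% reaching 2-fold lower. By their representing probe sets, the remaining 4 measured genes lay within 1.5-fold, as did 88.9% of all measured genes. The probe sets 1431056_a_at of Lpl (2.08-fold) and 1423140_at of Lipa (1.51-fold) did not. The median log2 ratio of the 5 genes was 0.31, and that of all measured genes was -0.03.

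**Figure D2:**
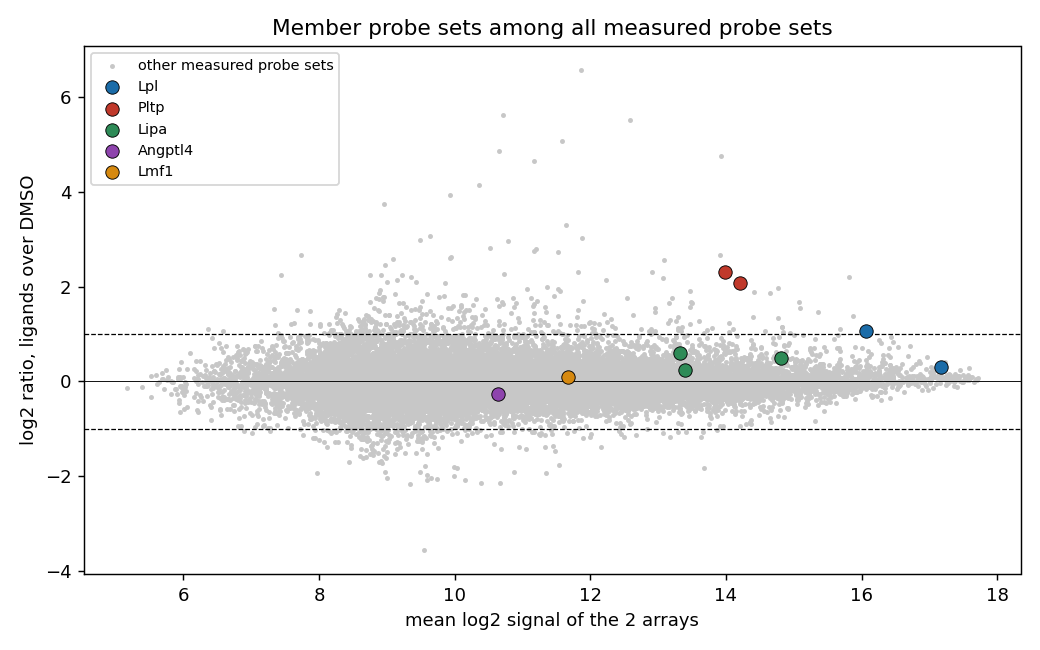
Log2 ratio of ligands over DMSO (signals below the floor set to the floor) against the mean log2 signal of the 2 arrays, with 1 point per measured probe set, member genes in colour and dashed lines at 2-fold. Both Pltp points stand clear of the bulk, at 2.07 and 2.31, and the Lpl points, at 0.31 and 1.06, lie at the bright end.

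Over the 9769 genes with signals above the floor on each array, those closest to Pltp in log2 ratio were the chemokine Ccl6 (2.08), the lysosomal peptide and histidine transporter Slc15a3 (2.13) and Rasgef1b, an exchange factor for Ras-family proteins (1.98). Ccl6 had 1907 with the ligands and 452.1 with DMSO, Slc15a3 had 10129 with the ligands and 2306 with DMSO, and Rasgef1b had 5223 with the ligands and 1324 with DMSO. Likeness over 2 arrays is a single ratio and says nothing more about these genes.

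Apolipoprotein genes, among them the activator of the lipase, differed most among the related genes. Of 13 apolipoprotein genes with a probe set, 5 were measured, and 3 of those passed 2-fold, each higher with the ligands. Among all measured genes, 1.67% were at least 2-fold higher. Apoc2, the activator that lipoprotein lipase needs, had 11575 with the ligands and 461.5 with DMSO, 25.1-fold higher. Apoc1, an inhibitor of lipoprotein lipase in vitro, had 13584 with the ligands and was below the floor with DMSO, at 206.7, and was at least 49.2-fold higher. Apoe had 8672 with the ligands and 298.6 with DMSO, 29.0-fold higher. Apoc3 and Apoa5, which inhibit and promote lipolysis in plasma, were below the floor on both arrays.

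The list of other lipases had no member at least 2-fold apart by the probe set that represents each gene. The 3 probe sets of Ddhd2, however, had log2 ratios from -1.3 to -0.07. Of 14 measured, 10 had positive ratios, against 46.2% of all measured genes. The median log2 ratio of the 14 was 0.21, and 10 further genes of the list were below the floor. These counts include Abhd5, measured, and G0s2, below the floor, which regulate a lipase and are not lipases themselves. The largest ratio was that of Pnpla3, a lipid droplet lipase, at least 1.76-fold higher, with 485.9 on the ligand array and, below the floor, 204.0 on the DMSO array. Hormone-sensitive lipase, Lipe, had a log2 ratio of -0.34, and Pnpla2, the main triglyceride lipase of lipid droplets, 0.28. Lipg, the endothelial lipase and a close relative of Lpl, was below the floor on both arrays.

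Both measured genes of the list of angiopoietins and their relatives, Angptl6 and Angpt2, were lower with the ligands. Angptl6 had 584.9 with the ligands and 988.8 with DMSO, 1.69-fold lower, and Angpt2, an angiopoietin, had 3196 with the ligands and 4798 with DMSO, a log2 ratio of -0.59. The remaining 4 with a probe set were below the floor.

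Genes that fold, move or cleave the lipase were level by their representing probe sets. Of 15 measured, 8 had positive and 7 negative ratios, none reached 2-fold by its representing probe set, and their median log2 ratio was 0.00. The 4 probe sets of the proteoglycan Sdc1 ranged from -0.13 to 1.24. Lmf2, the relative of Lmf1, had 4217 with the ligands and 4209 with DMSO. Sel1l, an endoplasmic reticulum protein that lipoprotein lipase needs to leave that compartment, had a log2 ratio of -0.32. Its 5 probe sets ranged from -0.32 to 0.11. Furin, a protease that can cleave lipoprotein lipase, had 0.31. The chaperone calnexin, Canx, was 1.55-fold higher (65541 with the ligands and 42181 with DMSO), but its 3 probe sets ranged from -0.44 to 0.94.

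Of 17 measured genes for lipid-transfer proteins, none reached 2-fold by its representing probe set. From the BPI and LBP family of Pltp, only Lbp and Bpifb1 were measured. Both, and also Lcat, exceeded the floor only with DMSO, so their ratios could only be negative. Whether the family shares the ratio of Pltp therefore cannot be told from them. Of the 17, 6 had positive and 11 negative ratios, and their median log2 ratio was -0.10. Lbp, a relative that binds bacterial lipopolysaccharide, was at least 1.22-fold lower, with 207.4 on the ligand array, below the floor, and 337.3 on the DMSO array. Mttp, which loads lipid onto apolipoprotein B, was 1.81-fold lower at weak signals (294.5 with the ligands and 532.3 with DMSO), and Bpifb1 and Lcat were lower by at least 1.72-fold and 1.56-fold, both below the floor with the ligands. Gm2a, the activator of lysosomal ganglioside breakdown, was 1.68-fold higher (log2 ratio 0.75), and its other probe set had a log2 ratio of 1.16.

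The list of genes for lysosomal lipid handling is not limited to proteins of the lysosome. It includes the transcription factors Tfeb, Tfe3 and Mitf, and Nceh1, all with positive ratios. Of 14 measured, 1, Ctsd, was at least 2-fold higher by its representing probe set, against 1.67% of all measured genes. None reached 2-fold lower. Smpd1 had a log2 ratio of 0.1 at its representing probe set and 1.2 at its other one. Positive ratios were found for 13 of the 14, against 46.2% of all measured genes, and their median log2 ratio was 0.27. The probe set SD of 0.28 describes 1 probe set and does not give the error of this median, which was not tested. Cathepsin D, Ctsd, was 2.59-fold higher (96626 with the ligands and 37315 with DMSO), and Pla2g15, a lysosomal phospholipase, was 1.90-fold higher (3520 with the ligands and 1853 with DMSO). Npc1 and Npc2, which carry the cholesterol that Lipa frees out of the lysosome, had log2 ratios of 0.21 and 0.30. Tfeb, a transcription factor of lysosomal genes, had 0.39.

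Among receptors and surface anchors for lipoproteins and lipases, 2 of 12 measured passed 2-fold by their representing probe sets, both higher with the ligands. The share of all measured genes at least 2-fold higher was 1.67%. The median log2 ratio of the 12 was 0.28. Probe sets that do not represent their gene reached 1.24 for Sdc1 and 1.03 for Sdc4. The heparan sulfate proteoglycan Sdc3 was 5.88-fold higher (21047 with the ligands and 3577 with DMSO), and the fatty acid receptor Cd36 was 2.53-fold higher. The 3 Cd36 probe sets ranged from 0.28 to 1.75. The proteoglycan Hspg2 was 1.71-fold higher and the remnant receptor Lrp1 1.60-fold higher.

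PPAR-responsive genes of fatty acid use form a list that Angptl4 could have joined by its known regulation. Here 2 of 10 measured members passed 2-fold, both higher with the ligands, against 1.67% of all measured genes. Cd36 is counted both here and among the receptors. Angptl4 had -0.26. Of the 10, 9 had positive ratios, against 46.2% of all measured genes, and their median log2 ratio was 0.53. Besides Cd36, these were led by Plin2, the lipid droplet coat protein, at 2.78-fold higher (70262 with the ligands and 25313 with DMSO). Fabp5, a fatty acid carrier, was 1.77-fold and Cpt1a, the carnitine palmitoyltransferase of mitochondrial entry, 1.71-fold higher. The other Fabp5 probe set, which does not represent the gene, had a log2 ratio of 1.11. Hilpda, an inhibitor of lipid droplet lipolysis that responds to PPARs and hypoxia as Angptl4 does, had a log2 ratio of 0.55.

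**Figure D3:**
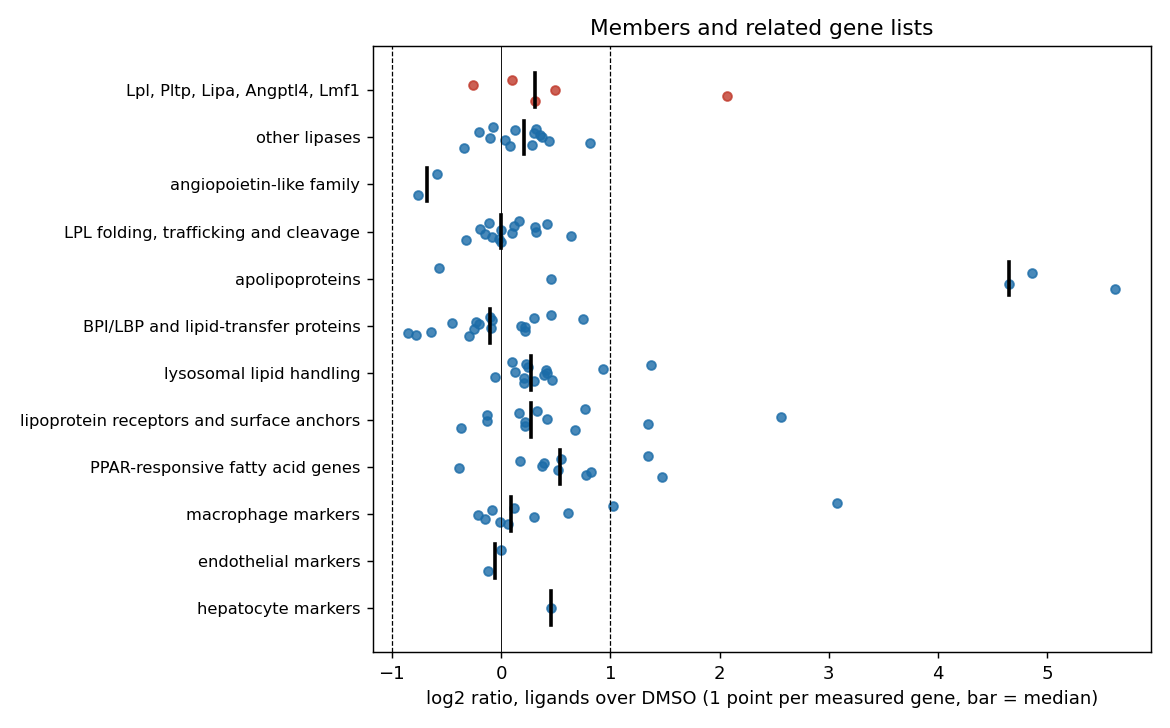
Log2 ratio of ligands over DMSO for each measured gene of the 5 measured members (red) and of each related list (blue), with the median as a black bar, dashed lines at 2-fold and bounds plotted at their bound. The apolipoproteins hold the 3 highest points, and Pltp stands apart from the lipid-transfer list, whose highest ratio by representing probe set is 0.75.

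The members kept their order of Pltp first and Angptl4 last under each alternative that gave a value. The gene ratio of Pltp ranged from 2.06 to 2.19, that of Lipa from 0.25 to 0.51, that of Lmf1 from 0.10 to 0.12 and that of Angptl4 from -0.29 to -0.24. Lpl had the widest range, 0.22 after quantile normalization and 0.69 as the mean over its probe sets. The probe set 1431056_a_at of Lpl fell just short of 2-fold after quantile normalization, at 0.98.

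**Figure D4:**
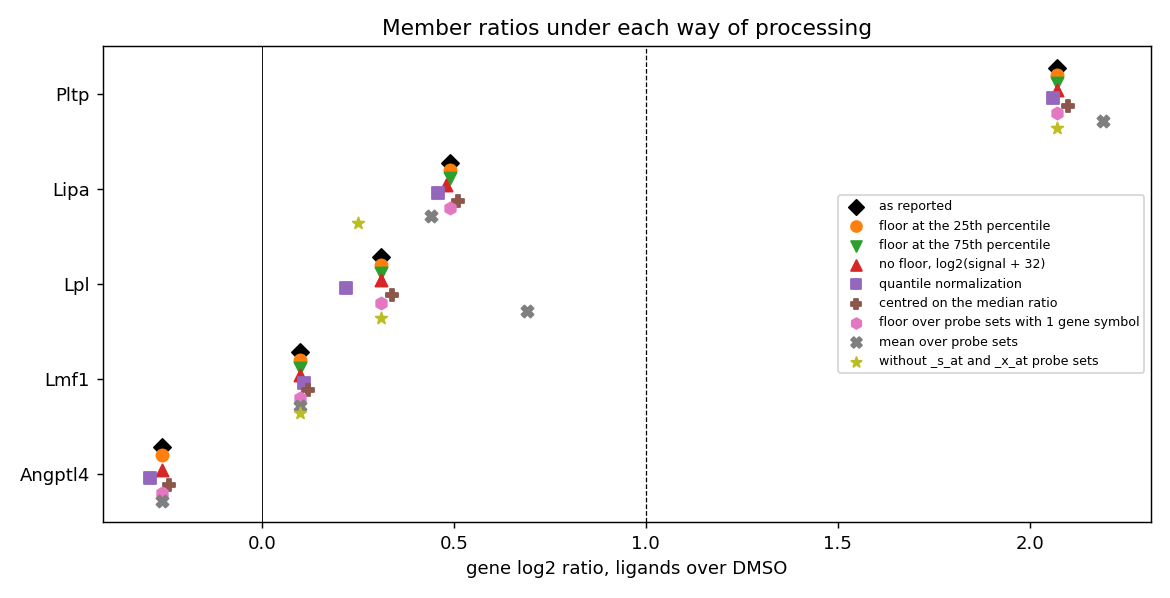
Gene log2 ratio of ligands over DMSO for the 5 measured members under the reported processing (black diamond) and 8 alternatives, with the dashed line at 2-fold. Pltp stays between 2.06 and 2.19, and the only wide spread is that of Lpl, at 0.22 to 0.69.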

How the data were processed

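The authors deposited linear intensities, 1 for each probe set. MAS5 produced them, according to the submitters' processing notes, which name no version. Both arrays had a 2% trimmed mean of 2500, so a ratio is relative to the rest of the array, and no further normalization was applied. Genes were named from the platform annotation. For 34741 of 34945 probe sets with 1 gene symbol, the symbol was taken from GRCm38.p6 by gene identifier, whether or not it differed. The files name no genome build.

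The planned floor named gene probe sets, and the floor used was over all probe sets other than controls, a choice made with the values known. Signals below the floor were set to it before log2 ratios of ligands over DMSO were taken. Where only 1 array exceeded the floor the ratio is a bound, written as at least N-fold. No p-value was computed. Promoters came from RefSeq in GRCm38.p6, and 3 of the 6 genes had a window. The members and lists were chosen with earlier results of these data known. The text names every member probe set, up to 4 members of each list at least 1.5-fold apart, and the 3 genes nearest in ratio to Pltp, the only member at least 1.5-fold apart by its representing probe set. Other genes were quoted for their role after their values were seen. Python 3.11.15, numpy 2.4.6 and pandas 2.3.3 were used, and the procedure was tested on simulated data. Alternatives changed the floor, the normalization, the choice of probe set or the threshold.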

Additional observations from a re-analysis of the deposited data

How the results depend on the processing

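Under the alternatives run, Pltp was the only member gene past the threshold, at 2-fold and also at 1.5-fold and 3-fold. All 53 ratios of member probe sets under another floor, no floor, quantile normalization or centring moved by less than 0.28, the probe set SD. Most of them could hardly move. Another floor leaves a ratio unchanged where both signals exceed it, and centring shifts every ratio by the same small amount. Of these settings, only quantile normalization could change the member ratios by much. The gene ratio of Lpl was 0.69 as the mean over its probe sets, because the second probe set then counts. Angptl4 gave no value with the floor at the 75th percentile or without _s_at and _x_at probe sets. Without those probe sets the Lipa ratio was 0.25.

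The count over all measured genes depended on the floor. At least 2-fold higher and lower were 1348 and 1335 with the floor at the 25th percentile, 71 and 13 at the 75th, and 1694 and 1685 with log2(signal + 32) and no floor. With the floor over only the probe sets with 1 gene symbol, 406.5, an alternative chosen after seeing the data, they were 157 and 51. At 1.5-fold they were 705 and 528, and at 3-fold 55 and 14. Of 232 counts and medians of the lists under alternatives, 29 moved. The apolipoprotein median was 1.11, 2.40 and 0.36 with the 25th percentile, the 75th percentile and no floor. No paired analysis was possible because each condition has 1 array.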

Other observations

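The genes next to the members on the chromosome, 2 protein-coding genes on each side in the RefSeq annotation of GRCm38.p6, were looked up after the members' values were seen. Of 24 neighbours, 18 were measured and none was 2-fold apart, with log2 ratios from -0.34 to 0.63. Of all measured genes, 1.67% reached 2-fold higher and 0.776% lower, so finding none among 18 is near that share. Those of Pltp were Neurl2 at 0.55 and Ctsa, protective protein cathepsin A, at 0.33 on one side, and Pcif1 at 0.14 and Zfp335 at 0.02 on the other, against 2.07 for Pltp. Next to Lpl, Ints10 had 0.61 and Atp6v1b2, a subunit of the lysosomal proton pump, 0.20. Next to Lipa, Ch25h, which makes the LXR ligand 25-hydroxycholesterol, had 348.2 with the ligands and 371.2 with DMSO.

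The probe sets of Lpl were also set among other bright probe sets, a description added because of the value of 1431056_a_at. Of 677 probe sets with a signal above 40000 on both arrays, 2 passed 2-fold, both in the higher direction. They were 1431056_a_at of Lpl, at 1.06, and 1 probe set of the chemokine Ccl9, at 1.08, while 1415904_at of Lpl, also among the 677, had 0.31. The ratios of the 677 ran from -0.46 to 1.08 with a median of 0.03. Probe sets that crossed 40000 between the arrays are outside this count, so the bound itself leaves out bright probe sets with large differences. Ctsd and Plin2, given above, were left out in this way. How many others were left out in either direction was not counted.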
